A study of Rattus norvegicus with 12 samples.

Results

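The genes described here encode the myosin motor of smooth muscle and non-muscle cells, its light chains, and the kinase and phosphatase that set light chain phosphorylation. They are 10 rows of the raw count table, chosen by gene symbol: the heavy chain genes Myh9, Myh10, Myh11 and Myh14, the regulatory light chain genes Myl9, Myl12a and Myl12b, the essential light chain gene Myl6, the kinase gene Mylk and the phosphatase subunit gene Ppp1r12a. All 10 passed the filter on low counts, out of 33294 rows in the table and 18438 genes tested. RNA was measured in PAC1 cells, a smooth muscle line from rat pulmonary artery, after siRNA knockdown of 1 of 3 RNA-binding proteins that regulate splicing. Poly(A)-selected libraries were made in 4 groups of 3: control cells given the scrambled siRNA C2, and cells given siRNA against RBPMS, RBFOX2 or QKI (Qk in the table). All 12 libraries come from this single line grown in medium with serum, and each received 90 pmol of siRNA by reverse transfection. The study describes these knockdowns as made in PAC1 cells cultured in a differentiated state. It reports that the control cells were less differentiated here than in its other RNA sequencing experiment. The labels give a repeat dose after 24 h and harvest 48 h later, while the study's own account has longer intervals. They number the libraries of a group without naming separate cultures, while the study describes its experiments in general as independent biological replicates. Which cultures these libraries came from is not stated in the labels, so the tests measure the spread between these libraries, which may be technical in part.

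Myosin II is built from a pair of heavy chains, each carrying an essential and a regulatory light chain. Calcium and calmodulin activate myosin light chain kinase, which phosphorylates the regulatory light chain and turns on the motor, and myosin phosphatase reverses this. The small GTPase RhoA and the kinases it activates inhibit the phosphatase and so favour contraction. Smooth muscle cells that specialise in contraction use the heavy chain of Myh11 and the light chain of Myl9, next to the non-muscle heavy chains of Myh9, Myh10 and Myh14 and the widely expressed light chains of Myl12a and Myl12b.

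Libraries held 111 to 152 M counts, and the 10 genes took up 0.478% to 0.517% of them. These totals exceed the reads per sample that the study gives. Whether both reads of a pair were counted is not stated in the sources used here. Each targeted gene was lowered in its own knockdown, with a log2 fold change of −2.50 for Rbpms, −2.05 for Rbfox2 and −3.13 for Qk. Targets of the other siRNAs moved too: Rbpms was lower after RBFOX2 knockdown (−0.81, edgeR adjusted p = 2.1e-09) and QKI knockdown (−0.49, adjusted p = 9.32e-07), and Qk was lower after RBFOX2 knockdown (−0.42, adjusted p = 1.7e-08). All 9 smooth muscle markers examined reached 1 CPM in every group, where CPM puts each count relative to its scaled library total, and their summed level was 2470 to 2560 CPM in control, 1390 to 1420 after RBPMS knockdown, 1120 to 1210 after RBFOX2 knockdown and 1530 to 1650 after QKI knockdown. Markers of other cells were low: 5 endothelial genes summed to 5.18 to 10.8 CPM, 4 leukocyte genes to 1.40 to 5.93 CPM and 6 striated muscle genes to 3.12 to 5.79 CPM over all libraries. Of 4 epithelial genes only Krt8 exceeded 1 CPM in any group, and their sum was highest after RBFOX2 knockdown, at 72.0 to 73.9 CPM. Within these lists Ptprc, Adgre1, Kdr and Actn2 had at most 6 counts in any library, while Cdh5 had 292 to 1115 counts and Csf1r and Myod1 were higher in each knockdown (Csf1r at 0.405 CPM in control and 3.63 CPM after QKI knockdown, Myod1 at 0.336 CPM in control and 0.977 to 1.66 CPM in the knockdowns, group means). The second RBPMS knockdown library stood apart from the other 2 of its group, with a chi-square per degree of freedom of 57.8 and 45.6 against 4.64 to 21.5 for the other pairs of replicates. It was high for Myl6 and Myl12a and low for Myh9 and Myh10.

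Against control, 9 of the 10 genes passed an adjusted p of 0.05 after RBPMS knockdown (edgeR quasi-likelihood test, adjusted over all genes tested), where 59.4% of all genes did. After RBFOX2 knockdown 7 of 10 passed (background 60.3%), and after QKI knockdown 10 of 10 (background 66.9%). The directions were mixed, with 3 higher and 6 lower after RBPMS knockdown (30.4% and 29% of all genes), 2 higher and 5 lower after RBFOX2 knockdown (30.1% and 30.1%), and 3 higher and 7 lower after QKI knockdown (32.9% and 34%). In each comparison the libraries of 9 of the 10 genes did not overlap with control, as for 61.7%, 68.6% and 72.3% of all genes. Few changes were large: an absolute log2 fold change over 1 was reached by 2 genes after RBPMS knockdown (background 9.66%), 2 after RBFOX2 knockdown (11.7%) and 1 after QKI knockdown (17.5%). The median log2 fold change of the 10 genes was −0.20, −0.23 and −0.44 in the same order, beside 0.0085, 0.015 and 0.0070 for all genes tested. The 3 comparisons share the control libraries, so the sets of calls are not independent of each other.

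**Figure D1:**
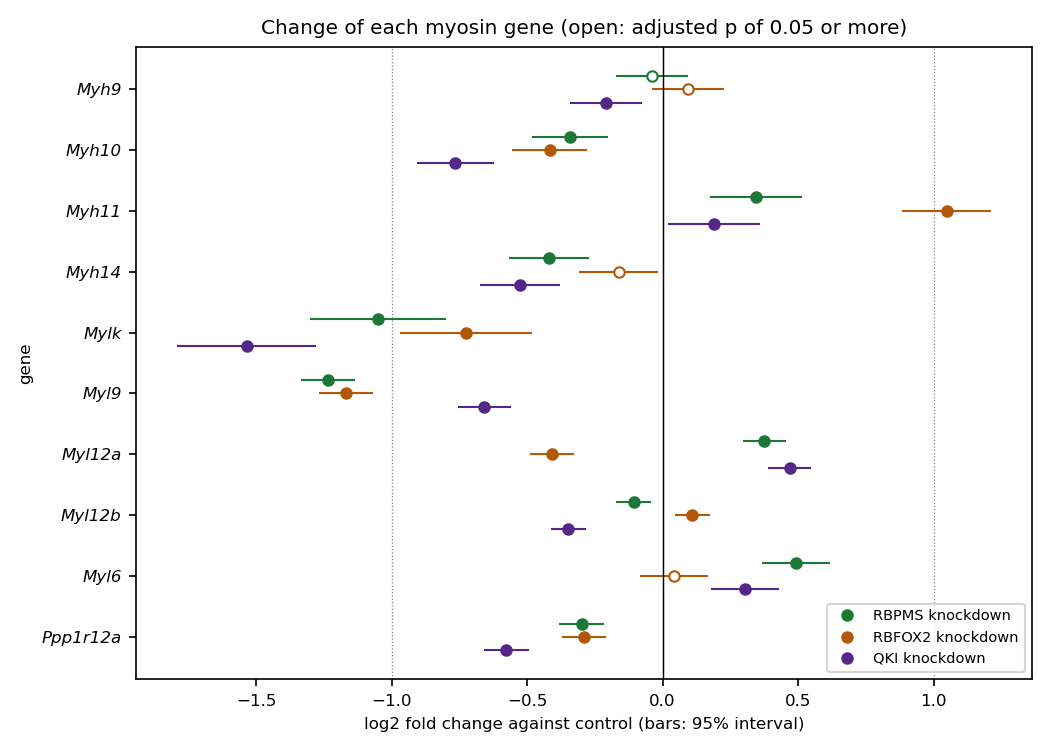
Log2 fold change against control (x axis) of each of the 10 genes (y axis) for the 3 knockdowns, with 95% intervals from the edgeR fit as bars, dotted lines at an absolute change of 1, and open points where the adjusted p was 0.05 or more. Myl9 and Mylk lie left of 0 in each knockdown, Myh11 lies right of 0 with its largest value after RBFOX2 knockdown, and Myl12a lies left of 0 only after RBFOX2 knockdown.

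Among the heavy chain genes, Myh11 was the one that rose, and the rise was largest after RBFOX2 knockdown. Myh11 encodes the smooth muscle myosin heavy chain, a marker of the contractile smooth muscle cell. Its level in control libraries was 6.72, 6.35 and 6.37 CPM, and after RBFOX2 knockdown 12.8, 13.6 and 13.7 CPM. All 3 RBFOX2 libraries lay above every other library, and the log2 fold change was 1.05 (SE 0.078, edgeR adjusted p = 3.45e-09). RBPMS knockdown libraries held 8.67, 7.69 and 8.33 CPM, also above every control library, with a log2 fold change of 0.34 (SE 0.080, edgeR adjusted p = 0.00136). After QKI knockdown the libraries held 7.07, 6.59 and 8.48 CPM, and the second of them lay within the control range. The log2 fold change of 0.19 (SE 0.080, edgeR adjusted p = 0.0474) passed narrowly and no longer did when any 1 of the 3 control libraries, or QKI library 1 or 3, was left out (adjusted p from 0.0504 to 0.367). Direct comparison placed RBFOX2 knockdown above RBPMS knockdown by 0.70 on the log2 scale (SE 0.078, edgeR adjusted p = 6.9e-07; log2 fold change −0.70 for RBPMS against RBFOX2) and above QKI knockdown by 0.86 (SE 0.078, edgeR adjusted p = 2.83e-08). The difference between RBPMS and QKI knockdown was 0.15 (95% interval −0.015 to 0.32, edgeR adjusted p = 0.106). Counts behind these values ran from 757 to 1915 per library. Krt8, from the epithelial list, was also highest after RBFOX2 knockdown (group mean 72.6 CPM, against 30.6 CPM in control). The other genes of that list stayed low. After RBFOX2 knockdown Epcam stood at 0.0334 CPM (0.0588 in control), Krt18 at 0.0311 CPM (0.0278) and Cdh1 at 0.15 CPM (0.0815). The part of these genes in the Myh11 value was not tested.

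Myh10, which encodes the heavy chain of non-muscle myosin IIB, moved the other way. Control libraries held 293, 300 and 338 CPM, RBPMS knockdown libraries 271, 213 and 251 CPM. RBFOX2 knockdown libraries held 235, 232 and 230.0 CPM and QKI knockdown libraries 179, 181 and 187 CPM. No knockdown library reached the control range, and the QKI libraries were the lowest of all 12. Log2 fold changes were −0.34 (SE 0.066, edgeR adjusted p = 2.65e-04) after RBPMS knockdown, −0.42 (adjusted p = 3.3e-05) after RBFOX2 knockdown and −0.76 (adjusted p = 1.65e-08) after QKI knockdown. QKI knockdown differed from RBPMS knockdown (0.42 higher in the latter, edgeR adjusted p = 2.76e-05) and from RBFOX2 knockdown (0.35 higher in the latter, adjusted p = 1.72e-04). Between RBPMS and RBFOX2 knockdown the difference was 0.077 (95% interval −0.063 to 0.22, adjusted p = 0.339), and its sign turned to −0.021 when libraries were scaled by their totals and to −0.040 in the authors' normalised table. In the RefSeq gene table of assembly GRCr8, 17.1% of the span of Myh10 overlaps Ndel1, a gene for a dynein regulator, and whether the counting used strand is not given in the sources used here. Ndel1 itself had log2 fold changes of −0.0039 (edgeR adjusted p = 0.922), −0.13 (adjusted p = 0.00116) and 0.16 (adjusted p = 1.59e-04) in the 3 knockdowns.

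Myh9, the gene of non-muscle myosin IIA, passed the test against control only after QKI knockdown. It ranged from 2522 to 2862 CPM in control, from 2273 to 2834 after RBPMS knockdown, from 2840 to 2850 after RBFOX2 knockdown and from 2236 to 2440 after QKI knockdown. Only the QKI libraries lay wholly below control, with a log2 fold change of −0.21 (SE 0.063, edgeR adjusted p = 0.00768). That call was lost when libraries were scaled by their totals (−0.12, adjusted p = 0.0955) and in the authors' normalised table (−0.087, limma adjusted p = 0.62). The change was −0.040 after RBPMS knockdown (95% interval −0.17 to 0.094, adjusted p = 0.613) and 0.094 after RBFOX2 knockdown (95% interval −0.040 to 0.23, adjusted p = 0.215). The sign of the RBPMS value turned without its second library (0.045) or without the third control library (0.012). Myh14, the gene of non-muscle myosin IIC, was measured at 9.06 to 10.5 CPM in control, and fell to 6.99 to 7.48 CPM after RBPMS knockdown (log2 fold change −0.42, SE 0.070, edgeR adjusted p = 5.73e-05) and to 6.38 to 6.87 CPM after QKI knockdown (−0.53, SE 0.070, adjusted p = 3.39e-06). After RBFOX2 knockdown it stood at 8.02 to 9.02 CPM, with a log2 fold change of −0.16 and an adjusted p of 0.0505 by edgeR. That value sits at the threshold, and it passed with DESeq2 (adjusted p = 0.0378) and when the first or second control library or the first RBFOX2 library was left out (adjusted p from 0.0335 to 0.0408).

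**Figure D2:**
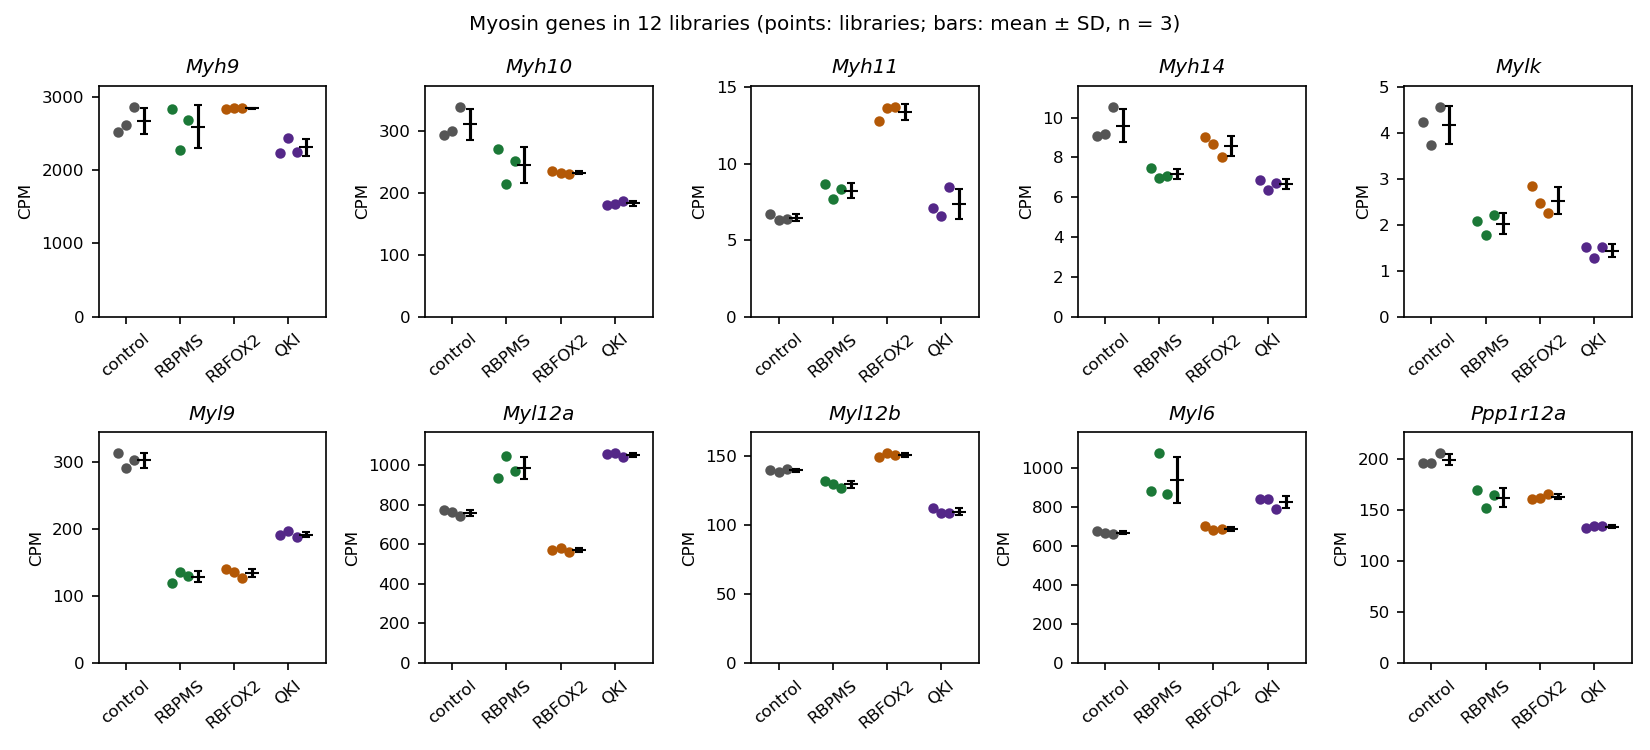
Level in CPM (y axis, from 0, a scale of its own for each gene) of the 10 genes in the 3 libraries of each group (points), with mean and SD as bars. The 3 RBFOX2 libraries of Myh11 sit between 12.8 and 13.7 CPM above all others, and the 3 control libraries of Myl9 sit between 292 and 313 CPM above all others.

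Heavy chains were also set against each other within each library, which does not depend on how libraries are scaled. No gene lengths were available, so these shares and ratios of counts compare groups and do not rank the genes. Myh11 supplied 0.237%, 0.216% and 0.198% of the counts of the 4 heavy chain genes in control libraries. Its share was 0.278%, 0.307% and 0.283% after RBPMS knockdown, 0.414%, 0.439% and 0.442% after RBFOX2 knockdown, and 0.291%, 0.250% and 0.346% after QKI knockdown. Every knockdown library lay above every control library, and each difference had the smallest p that an exact permutation test of 3 against 3 libraries can give (two-sided p = 0.1), as did every share and ratio given below, so no such test can reach 0.05 in this design. The mean share thus went from 0.217% ± 0.020 (SD, n = 3) in control to 0.432% ± 0.016 after RBFOX2 knockdown. On the log2 scale the ratio of Myh11 to Myh9 counts was higher than in control by 0.39 after RBPMS knockdown, 0.95 after RBFOX2 knockdown and 0.39 after QKI knockdown. Against Myh10 the same quantity was higher by 0.69, 1.46 and 0.94. The ratio of Myh10 to Myh9 counts was lower than in control by 0.30 after RBPMS knockdown (difference −0.30), by 0.51 after RBFOX2 knockdown (−0.51) and by 0.55 after QKI knockdown (−0.55). The second RBPMS library, which was low in both Myh9 and Myh10, had a Myh10 to Myh9 log2 ratio of −3.41, within the −3.39 to −3.41 of its group.

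**Figure D3:**
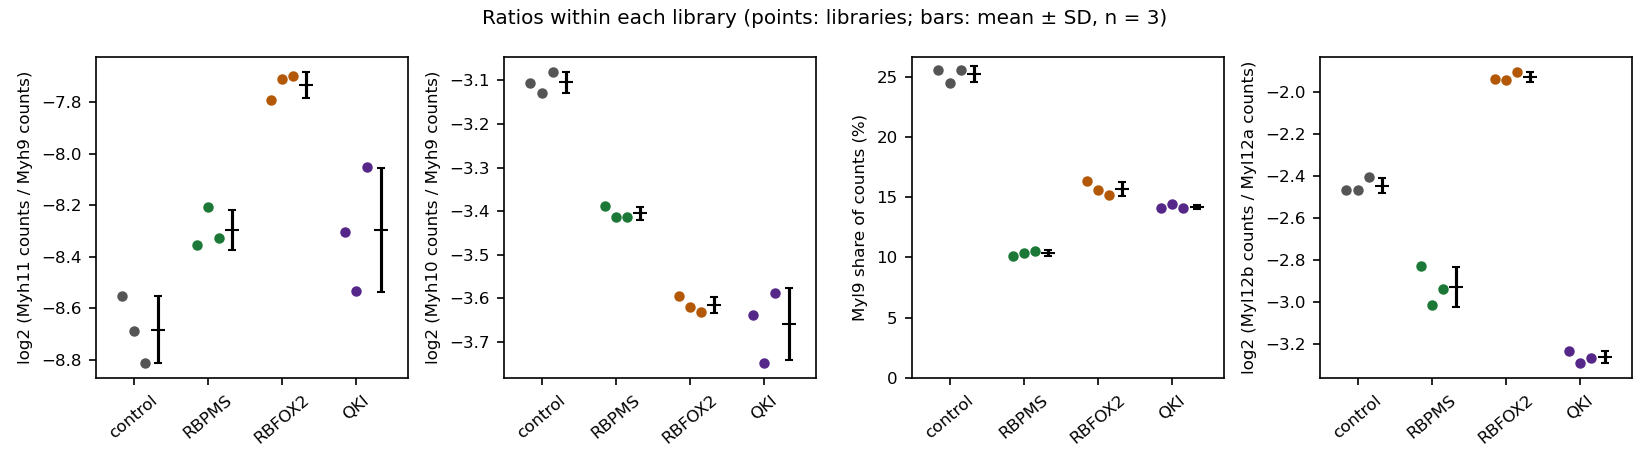
Within-library quantities (y axes) in the 3 libraries of each group (points), with mean and SD as bars: log2 ratio of Myh11 to Myh9 counts, log2 ratio of Myh10 to Myh9 counts, Myl9 counts as a percentage of Myl9, Myl12a and Myl12b counts together, and log2 ratio of Myl12b to Myl12a counts. The Myl9 share is near 25% in control and between 10.1% and 16.3% in the knockdowns, and the Myl12b to Myl12a ratio is above control only after RBFOX2 knockdown.

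Of the regulatory light chains, the smooth muscle gene Myl9 fell in all 3 knockdowns while Myl12a and Myl12b each rose in some and fell in others. Myl9 libraries held 313, 292 and 304 CPM in control and 120, 137 and 130 CPM after RBPMS knockdown. They held 140, 136 and 128 CPM after RBFOX2 knockdown and 191, 197 and 188 CPM after QKI knockdown. Control libraries were the highest, QKI libraries came next, and the RBPMS and RBFOX2 libraries overlapped at the bottom. The log2 fold changes were −1.23 (SE 0.047, edgeR adjusted p = 8.28e-13), −1.17 (SE 0.047, adjusted p = 1.08e-12) and −0.66 (SE 0.046, adjusted p = 1.02e-09). Among all genes tested, 7.6% changed by more than Myl9 after RBPMS knockdown and 9.82% after RBFOX2 knockdown. QKI knockdown left a higher level than RBPMS knockdown (log2 difference −0.58 for RBPMS against QKI, edgeR adjusted p = 9.45e-09) and than RBFOX2 knockdown (−0.51 for RBFOX2 against QKI, adjusted p = 2.92e-08). RBPMS and RBFOX2 knockdown differed by −0.064 (95% interval −0.16 to 0.034, adjusted p = 0.254), and without the second RBPMS library by −0.11 (adjusted p = 0.0303). That difference also passed with libraries scaled by their totals (−0.16, edgeR adjusted p = 0.00576) and in the authors' normalised table (−0.15, limma adjusted p = 0.0498). The summed smooth muscle markers were also lower in each knockdown than in control, with Acta2 the largest part of the control sum (990 ± 16.3 CPM, SD, n = 3). Single markers differed: 7, 6 and 6 of the 9 passed the test as lower after RBPMS, RBFOX2 and QKI knockdown (29%, 30.1% and 34% of all genes). In the same order 2, 1 and 2 passed as higher (30.4%, 30.1% and 32.9% of all genes). After QKI knockdown Myocd (log2 fold change 0.78, edgeR adjusted p = 2.01e-09) and Des (0.98, adjusted p = 2.04e-08) rose. The part of the markers in the Myl9 values was not tested, and fewer contractile cells and less RNA per cell cannot be told apart in bulk RNA.

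Myl12a and Myl12b encode closely related regulatory light chains that most cells use, and they lie next to each other on chromosome 9 in the RefSeq gene table of GRCr8. In these libraries they moved in opposite directions. Myl12a stood at 773, 764 and 743 CPM in control and at 570, 584 and 564 CPM after RBFOX2 knockdown. It stood at 937, 1048 and 972 CPM after RBPMS knockdown and at 1056, 1060 and 1041 CPM after QKI knockdown. The RBFOX2 libraries were thus the lowest, and both other knockdowns were above control without overlap. Log2 fold changes were 0.38 after RBPMS knockdown (SE 0.038, edgeR adjusted p = 1.52e-07), −0.41 after RBFOX2 knockdown (adjusted p = 5.12e-08) and 0.47 after QKI knockdown (adjusted p = 5.29e-09). Direct comparison gave 0.78 for RBPMS against RBFOX2 knockdown (SE 0.038, edgeR adjusted p = 2.38e-11) and −0.88 for RBFOX2 against QKI knockdown (SE 0.038, adjusted p = 1.38e-12). RBPMS and QKI libraries overlapped, and their difference of −0.094 (edgeR adjusted p = 0.0384) passed narrowly and did not pass when RBPMS library 1 or 3 or QKI library 1 or 2 was left out (adjusted p from 0.0764 to 0.193). With all libraries kept, 9 other settings gave differences from −0.37 to −0.094. Of these, 1 did not pass, the fit to the 6 libraries of the comparison (−0.098, edgeR adjusted p = 0.0851).

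Myl12b showed smaller changes of the opposite sign. Its control libraries held 140, 138 and 140 CPM, and its RBFOX2 knockdown libraries 149, 151 and 151 CPM. RBPMS knockdown libraries held 132, 130 and 127 CPM and QKI knockdown libraries 112, 108 and 108 CPM. The 4 groups did not overlap, with RBFOX2 highest, then control, RBPMS and QKI. The log2 fold change was 0.11 after RBFOX2 knockdown (SE 0.031, edgeR adjusted p = 0.00535), −0.11 after RBPMS knockdown (adjusted p = 0.00612) and −0.35 after QKI knockdown (adjusted p = 2.04e-08). RBFOX2 and QKI knockdown differed by 0.46 (SE 0.031, edgeR adjusted p = 5.48e-10), RBPMS and RBFOX2 knockdown by −0.22 (adjusted p = 1.19e-05), and RBPMS and QKI knockdown by 0.24 (adjusted p = 2.85e-06). Within libraries, the log2 ratio of Myl12b to Myl12a counts was −2.45 ± 0.037 (SD, n = 3) in control, −2.93 ± 0.094 after RBPMS knockdown, −1.93 ± 0.022 after RBFOX2 knockdown and −3.26 ± 0.029 after QKI knockdown. Across the 12 libraries the 2 genes had a Pearson r of −0.89 on log2 CPM, a description in which libraries of a group share their treatment. The coding sequences of the pair are similar, and how reads that match both were counted is not given in the sources used here, so the split of counts between them is uncertain to that extent.

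The start regions of this neighbouring pair are shown because the genes share a chromosome and a function and yet moved oppositely. Each window runs from 250 bases before to 50 bases after the annotated start, 5′ to 3′ on the strand of the gene, from RefSeq (GRCr8). Capitals mark every match, on either strand, of CCAAT, of GGGCGG, of TATAAA or of the CArG box bound by serum response factor. Myl12a lies on the minus strand at chr9:118346228-118346527 and Myl12b on the minus strand at chr9:118334761-118335060.
Myl12a: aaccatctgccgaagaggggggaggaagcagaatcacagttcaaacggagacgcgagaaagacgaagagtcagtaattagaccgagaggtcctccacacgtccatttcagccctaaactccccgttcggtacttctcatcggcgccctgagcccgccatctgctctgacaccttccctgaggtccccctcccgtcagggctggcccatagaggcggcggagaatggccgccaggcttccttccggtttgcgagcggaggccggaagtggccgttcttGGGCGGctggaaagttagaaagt
Myl12b: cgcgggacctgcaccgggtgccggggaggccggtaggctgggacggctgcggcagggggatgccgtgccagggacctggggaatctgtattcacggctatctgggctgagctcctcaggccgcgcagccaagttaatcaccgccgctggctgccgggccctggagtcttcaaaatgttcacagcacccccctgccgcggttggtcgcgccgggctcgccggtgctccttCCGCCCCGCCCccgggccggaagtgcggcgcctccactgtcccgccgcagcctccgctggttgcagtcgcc
The Myl12a window has 1 GGGCGG match, after the start, and 59.7% GC. The Myl12b window has 2 GGGCGG matches that overlap each other just before the start, and 72.0% GC. Neither window holds CCAAT, found in 37.5% of 33469 rat windows of this length, or TATAAA, found in 14.2%, while GGGCGG is found in 33.1%. Of the 10 genes 8 matched a window in the table, 9 windows in all, and none held a CArG box, which 1.64% of all windows hold. Myh11 and Myl9 did not match one. A match is only a run of letters and says nothing about binding.

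Taken relative to one another, the regulatory light chain counts moved away from Myl9 in each knockdown. Myl9 made up 25.6%, 24.4% and 25.6% of the counts of Myl9, Myl12a and Myl12b in control. This share was 10.1%, 10.4% and 10.6% after RBPMS knockdown, 16.3%, 15.6% and 15.2% after RBFOX2 knockdown, and 14.1%, 14.4% and 14.1% after QKI knockdown. The RBPMS libraries had the lowest share, the QKI libraries came next and the RBFOX2 libraries followed, all below control without overlap. This order differs from that of Myl9 CPM, where QKI libraries were the highest of the knockdowns. The log2 ratio of Myl9 to Myl12a counts was lower than in control by 1.61 after RBPMS knockdown (difference −1.61), by 0.76 after RBFOX2 knockdown (−0.76) and by 1.13 after QKI knockdown (−1.13). Myl6, which encodes the essential light chain of smooth muscle and non-muscle myosin, ranged from 660 to 676 CPM in control, from 863 to 1072 after RBPMS knockdown, from 679 to 698 after RBFOX2 knockdown and from 789 to 841 after QKI knockdown. It rose after RBPMS knockdown (log2 fold change 0.49, SE 0.059, edgeR adjusted p = 1.56e-06) and QKI knockdown (0.30, SE 0.059, adjusted p = 2.25e-04). After RBFOX2 knockdown the value was 0.043 (95% interval −0.082 to 0.17, adjusted p = 0.552), although the libraries did not overlap with control. In the authors' normalised table that comparison passed (0.18, limma adjusted p = 0.0436). The second RBPMS library, at 1072 CPM, was far above the other 2 of its group.

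The kinase gene Mylk fell in each knockdown. It encodes myosin light chain kinase and, from a promoter inside the gene, the smooth muscle protein telokin, and a count per gene does not separate them. Control libraries held 4.23, 3.74 and 4.56 CPM and QKI knockdown libraries 1.52, 1.28 and 1.51 CPM. RBPMS knockdown libraries held 2.08, 1.78 and 2.21 CPM and RBFOX2 knockdown libraries 2.85, 2.48 and 2.25 CPM. The 4 groups did not overlap, with QKI lowest, then RBPMS, RBFOX2 and control. The log2 fold change was −1.53 after QKI knockdown (SE 0.12, edgeR adjusted p = 4.74e-09), −1.05 after RBPMS knockdown (SE 0.12, adjusted p = 6.86e-07) and −0.73 after RBFOX2 knockdown (SE 0.11, adjusted p = 3.16e-05). The RBPMS value stood at −0.96 without the second RBPMS library and at −0.98 without the third control library, so it passed the adjusted p but not an absolute change of 1. QKI knockdown lay below RBPMS knockdown (log2 difference 0.49 for RBPMS against QKI, edgeR adjusted p = 0.00337) and below RBFOX2 knockdown (0.81 for RBFOX2 against QKI, adjusted p = 1.77e-05). The difference of −0.32 between RBPMS and RBFOX2 knockdown (edgeR adjusted p = 0.0311) was lost without the second RBPMS library (−0.24, adjusted p = 0.13) and without the first or second RBFOX2 library (−0.23, adjusted p = 0.165, and −0.33, adjusted p = 0.0598). Mylk rested on 147 to 621 counts per library, the fewest of the 10 genes.

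Ppp1r12a, which encodes the subunit that targets myosin phosphatase to myosin, fell as well. Its libraries held 196, 196 and 205 CPM in control and 170, 151 and 165 CPM after RBPMS knockdown. They held 160.5, 162 and 166 CPM after RBFOX2 knockdown and 132, 134 and 134 CPM after QKI knockdown. All knockdown libraries lay below control, and the QKI libraries lay below all others. The log2 fold changes were −0.30 after RBPMS knockdown (SE 0.039, edgeR adjusted p = 4.06e-06), −0.29 after RBFOX2 knockdown (SE 0.039, adjusted p = 5.19e-06) and −0.58 after QKI knockdown (SE 0.039, adjusted p = 5.97e-10). RBPMS and RBFOX2 knockdown differed by −0.0075 (95% interval −0.090 to 0.075, adjusted p = 0.885), and the sign of that difference turned to 0.039 without the second RBPMS library and to 0.0089 without the third RBFOX2 library. QKI knockdown lay below RBPMS knockdown (0.28 for RBPMS against QKI, edgeR adjusted p = 8.31e-06) and RBFOX2 knockdown (0.29 for RBFOX2 against QKI, adjusted p = 4.62e-06). The genes of the kinase and of the phosphatase subunit were thus both lower in each knockdown. Ppp1r12a and Myh10 had the closest pattern of any pair among the 10 genes, with a Pearson r of 0.98 over the 12 libraries, and Ppp1r12a and Mylk had an r of 0.95.

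The windows of Myh10 and Ppp1r12a are shown with the same marking, as the pair with the closest levels over libraries. Myh10 lies on the plus strand at chr10:53893014-53893313 and Ppp1r12a on the plus strand at chr7:45369194-45369493.
Myh10: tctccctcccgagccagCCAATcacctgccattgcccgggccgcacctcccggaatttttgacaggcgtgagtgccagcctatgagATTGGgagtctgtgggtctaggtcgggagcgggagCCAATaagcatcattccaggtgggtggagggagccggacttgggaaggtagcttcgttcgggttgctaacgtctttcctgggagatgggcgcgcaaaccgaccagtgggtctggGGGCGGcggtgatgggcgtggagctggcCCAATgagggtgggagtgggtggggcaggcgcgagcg
Ppp1r12a: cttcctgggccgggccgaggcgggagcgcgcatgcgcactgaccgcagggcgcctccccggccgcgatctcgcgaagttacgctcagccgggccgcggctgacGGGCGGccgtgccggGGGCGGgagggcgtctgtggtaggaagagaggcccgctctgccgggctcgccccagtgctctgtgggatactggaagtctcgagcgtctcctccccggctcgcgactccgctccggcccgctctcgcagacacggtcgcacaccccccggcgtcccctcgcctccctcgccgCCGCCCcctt
The Myh10 window has 4 CCAAT matches and 1 GGGCGG match, with 64.0% GC. The Ppp1r12a window has 3 GGGCGG matches and no CCAAT match, with 75.7% GC. No match of 1 motif overlaps a match of another in these windows.

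Between knockdowns, RBFOX2 and QKI depletion differed in all 10 genes (edgeR adjusted p under 0.05, where 68.5% of all genes passed), with 7 higher after RBFOX2 knockdown (35% of all genes) and 3 lower (33.5%). The 3 that were lower after RBFOX2 knockdown were the light chain genes Myl6, Myl9 and Myl12a. RBPMS and QKI depletion differed in 8 genes (background 61%), and RBPMS and RBFOX2 depletion in 6 (background 56.7%). The count of 8 went as low as 6, and that of 6 as low as 5, both with a library left out and in other settings. Among the 8, Myh9 passed narrowly (0.17 for RBPMS against QKI, edgeR adjusted p = 0.0286) with libraries that overlapped. Its call was lost in 4 of 6 fits with a library left out and in 4 of 9 other settings. No direct difference between knockdowns exceeded an absolute log2 value of 1 in these genes (7.52% of all genes for RBPMS against RBFOX2, 12.2% for RBPMS against QKI and 18.4% for RBFOX2 against QKI), and the largest was that of Myl12a between RBFOX2 and QKI knockdown. Genes with the level pattern most like that of a smooth muscle member over the 12 libraries were picked by Pearson r of log2 CPM among all tested genes of at least 5 CPM. For Myh11 these were Scn4a, a sodium channel gene (r = 0.98), Bcl2l11, the gene of the apoptosis protein Bim (r = 0.98), and Tnc, the gene of the matrix protein tenascin C (r = 0.97). For Myl9 they were Ctsf, which encodes a cathepsin (r = 0.996), Larp1b (r = 0.99) and Galc, a lysosomal galactosidase gene (r = 0.99). For Mylk they were Fblim1, which encodes a filamin-binding adhesion protein (r = 0.99), Hdgfl3 (r = 0.98) and Fam117b (r = 0.98). These r describe 12 libraries that fall into 4 treatments, and no gene was picked for all 3.

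Other genes that set light chain phosphorylation were read from a list of 35, of which 34 were tested. After RBPMS knockdown 24 passed the test, 9 higher and 15 lower, with a median log2 fold change of −0.050. After RBFOX2 knockdown 29 passed, 10 higher and 19 lower (median −0.18), and after QKI knockdown 26 passed, 4 higher and 22 lower (median −0.35). Over all genes tested the shares that passed were 59.4%, 60.3% and 66.9%.

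Calm2 and Calm3 encode calmodulin, the calcium sensor that activates the kinase. Calm2 fell after RBFOX2 knockdown, from 622, 604 and 586 CPM in control to 150, 150 and 149 CPM (log2 fold change −2.01, SE 0.045, edgeR adjusted p = 6.64e-16). The RBFOX2 libraries were far below every control library. Calm2 rose after RBPMS knockdown (0.33, SE 0.044, edgeR adjusted p = 4.45e-06), and Calm3 rose after QKI knockdown (0.21, SE 0.033, adjusted p = 2.51e-05).

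Rhoa, the GTPase gene, fell after RBFOX2 knockdown from 815, 822 and 816 CPM to 431, 439 and 440 CPM (log2 fold change −0.90, SE 0.030, edgeR adjusted p = 9.38e-14). Rock2, the gene of a kinase that RhoA activates, fell after QKI knockdown from 293, 306 and 318 CPM to 108, 110 and 113 CPM (−1.47, SE 0.052, adjusted p = 9.36e-14). Both falls were well outside the control range. Prkca, the gene of protein kinase C alpha, fell after QKI knockdown from 75.4, 76.1 and 84.0 CPM to 21.3, 22.8 and 22.9 CPM (−1.81, SE 0.053, edgeR adjusted p = 6.98e-15). Ppp1r14a, the gene of the phosphatase inhibitor CPI-17, rose after RBPMS knockdown (0.65, SE 0.091, adjusted p = 9.35e-06). Cald1, whose product caldesmon binds actin and restrains myosin, fell after RBPMS knockdown (−0.70, SE 0.049, adjusted p = 2.01e-09), RBFOX2 knockdown (−0.62, SE 0.049, adjusted p = 8.21e-09) and after QKI knockdown (−1.19, SE 0.050, adjusted p = 8.58e-13). Cald1 also stands in the smooth muscle marker list.

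Further genes of this list also changed. Prkg1, the gene of cGMP-dependent protein kinase, fell after RBPMS knockdown (log2 fold change −0.64, SE 0.095, edgeR adjusted p = 1.85e-05), as did Arhgef11, a guanine nucleotide exchange factor gene (−0.58, adjusted p = 2.38e-06). The group means of both were below control in each knockdown and lowest after QKI knockdown. Prkg1 stood at 8.85 CPM in control and at 5.72, 6.29 and 5.01 CPM after RBPMS, RBFOX2 and QKI knockdown. Arhgef11 stood at 68.7 CPM in control and at 45.9, 51.1 and 41.4 CPM in that order. Cit, the gene of citron kinase, rose after RBPMS knockdown (0.33, edgeR adjusted p = 0.00427) and RBFOX2 knockdown (0.51, adjusted p = 1.06e-04). After QKI knockdown the mean of Cit was lower, at 22.8 CPM against 34.7 CPM in control. Arhgef12, another exchange factor gene, rose after RBFOX2 knockdown (0.43, edgeR adjusted p = 6.36e-07). After QKI knockdown the rises were small, 0.24 for Rhoc (edgeR adjusted p = 1.87e-05) and 0.21 for Arhgef1 (adjusted p = 1.59e-05).

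**Figure D4:**
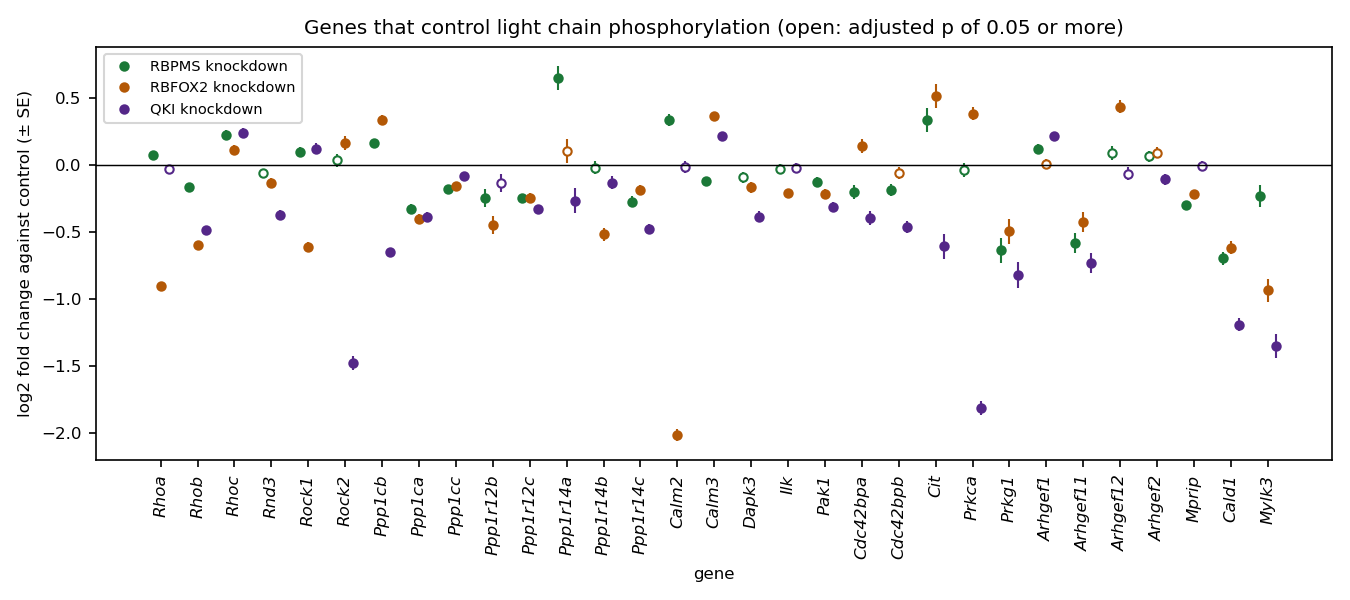
Log2 fold change against control (y axis, ± SE) in each knockdown for 31 listed genes whose mean reached 1 CPM (x axis), with open points where the adjusted p was 0.05 or more. Calm2 after RBFOX2 knockdown (−2.01) and Rock2 (−1.47) and Prkca (−1.81) after QKI knockdown are the 3 lowest points.

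Sarcomeric myosin genes, which serve skeletal and cardiac muscle, were low. Of 18 listed, 16 occur in the count table, 11 of these had at most 4 counts in every control library, and 5 were tested. After RBPMS knockdown 2 passed (1 higher and 1 lower), after RBFOX2 knockdown 2 passed (both higher), and after QKI knockdown 3 passed (2 higher and 1 lower), beside 59.4%, 60.3% and 66.9% of all genes. None reached a mean of 5 CPM, below which no gene of a list was named.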

How the data were processed

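Poly(A) RNA of 12 libraries was sequenced as paired ends. Per the submitters' processing notes, reads were aligned by the authors with STAR 2.5.2a to mRatBN7.2. The authors deposited raw counts per gene symbol, and a normalised signal (quantile normalised over the 12 libraries, smallest value 5). Neither strand use nor the handling of shared reads in the counting is given in the sources used here. Groups and replicate numbers came from the titles.

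The test on counts was that of edgeR 4.0.16, run under R 4.3.3 (filterByExpr, TMM, glmQLFit and glmQLFTest, all 12 libraries in 1 fit, common dispersion 0.00241, two-sided). Each of 6 comparisons was adjusted by Benjamini-Hochberg over 18438 genes holding 99.99% of counts. A change was called at an adjusted p under 0.05, and counted again with an absolute log2 fold change over 1. The SE was the absolute log2 fold change over the square root of F. CPM are counts relative to the TMM-scaled library total. Shares and ratios are of raw counts, tested by exact permutation.

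The 10 genes and the gene lists were chosen with earlier results of these data known. From each list up to 3 genes per direction and knockdown were named, by size among those past the test with at least 5 CPM, and some of these are not reported here. Replicate pairs had a chi-square per degree of freedom of 4.64 to 57.8, so none was a duplicate. Alternatives used other scalings and filters, halved counts, DESeq2 1.42.0, the 6 libraries of a comparison alone, a replicate block, leaving out each library, and the authors' normalised signal as log2(value + 1) in limma 3.58.1. Splicing was not analysed here. The fit was tested on simulated data.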

Additional observations from a re-analysis of the deposited data

How the results depend on the processing

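Precision by depth was lowest for Mylk, at 147 to 621 counts per library. With 3 libraries a group, shares and ratios could not reach an exact p below 0.1. The shares were planned per coding length as well, which was not run because no gene lengths were at hand. Alternatives for the log2 ratios were chosen after seeing the data. Scaling by library totals moved the median of all genes to −0.11 for RBPMS against RBFOX2 knockdown and to −0.12 for RBPMS against QKI knockdown, and by less elsewhere. No alternative ended the call of Myh10, Myl9, Myl12a, Myl12b, Mylk or Ppp1r12a in any knockdown against control.

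Signs turned for differences that did not pass the test, and for 1 that did. Myh10 in RBPMS against RBFOX2 knockdown gave −0.021 with library totals and −0.040 with the authors' normalised table (0.077 as reported). With library totals Myh14 in RBPMS against QKI knockdown gave −0.022 (0.11 as reported). Myl6 in the same comparison, which had passed at 0.19, gave −0.12 with the authors' table, 0.057 with library totals and 0.15 without QKI replicate 3, none of which passed. With a library left out, Myh9 in RBPMS knockdown against control ranged from −0.11 to 0.045 (0.012 and 0.045 above 0) and Ppp1r12a in RBPMS against RBFOX2 knockdown from −0.041 to 0.039 (0.0089 and 0.039 above 0). The cause was not tested.

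The authors' normalised table moved the Myl9 share difference to −10.3 percentage points for RBFOX2 and −12.2 for QKI knockdown, the log2 ratio of Myh10 to Myh9 to −0.40 for RBPMS knockdown, that of Myl9 to Myl12a to −0.85 for RBFOX2 and −1.26 for QKI knockdown, and that of Myl12b to Myl12a to 0.42 for RBFOX2 and −0.96 for QKI knockdown, with no change of sign. Genes past an absolute log2 change of 1 after RBPMS knockdown numbered 1 in that table and 1 to 2 when a library was left out (1 without control replicate 3 or RBPMS replicate 2). Sarcomeric genes past the test after RBPMS knockdown numbered 1 with a mean of at least 200 counts, with the replicate block, in the 6-library fit and in the authors' table, and 1 to 3 when a library was left out (1 without control replicate 1 or RBPMS replicate 2, and 3 without RBPMS replicate 3). After RBFOX2 knockdown they numbered 0 with a mean of at least 200 counts, 1 in the authors' table, and 1 to 3 when a library was left out (1 without control replicate 2 or 3, and 3 without control replicate 1). The replicate block changed no call of the 10 genes. Some differences that did not pass as reported did so under an alternative. Myh9 passed in RBFOX2 knockdown against control in the 6-library fit (0.096, edgeR adjusted p = 0.0267). In RBPMS against RBFOX2 knockdown, library totals gave passing values for Myh9 (−0.23, edgeR adjusted p = 0.00471) and Ppp1r12a (−0.11, adjusted p = 0.0321). Without QKI replicate 3, Myh11 passed in RBPMS against QKI knockdown (0.26, edgeR adjusted p = 0.00551). Same-numbered libraries of different groups did not deviate together (correlation of deviations −0.055 to 0.039 over 18 pairs, against −0.043 to 0.050 for 36 pairs of unlike number), so the numbers were not taken to pair libraries. The authors' table ended 6 calls between knockdowns, those of Myl6 given above, of Mylk in RBPMS against RBFOX2 knockdown (−0.22, limma adjusted p = 0.163), of Myh14 in RBPMS against RBFOX2 knockdown (−0.16, limma adjusted p = 0.0907) and in RBFOX2 against QKI knockdown (0.18, adjusted p = 0.051), Myh9 in RBFOX2 against QKI knockdown (0.25, adjusted p = 0.143), and Myh9 in RBPMS against QKI knockdown (0.080, adjusted p = 0.659).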

Other observations

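Myosins of other classes move cargo and membranes and shape cell protrusions, and 21 of the 24 listed were tested. After RBPMS knockdown 11 passed the edgeR test (5 higher and 6 lower, median log2 fold change 0.032), after RBFOX2 knockdown 12 (8 higher and 4 lower, median 0.33) and after QKI knockdown 15 (7 higher and 8 lower, median 0.11). Shares of all genes that passed were 59.4%, 60.3% and 66.9%. Both Myo1d and Myo1e, class I motors that link membranes to actin, fell in each knockdown. The log2 fold change of Myo1d was −0.68 after RBPMS (SE 0.047, edgeR adjusted p = 1.32e-09), −0.12 after RBFOX2 (adjusted p = 0.0334) and −1.07 after QKI knockdown (adjusted p = 1.55e-12). For Myo1e it was −0.54 (SE 0.038, edgeR adjusted p = 1.76e-09), −0.45 (adjusted p = 1.44e-08) and −0.81 (adjusted p = 3.8e-12).

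Myo5a, the organelle transporter myosin Va, fell after RBPMS knockdown (−0.47, SE 0.054, edgeR adjusted p = 9.02e-07) and QKI knockdown (−0.79, adjusted p = 6.9e-10). Myo7a, a motor known from sensory hair cells, rose after RBPMS knockdown (0.54, SE 0.080, edgeR adjusted p = 1.63e-05) and QKI knockdown (1.04, adjusted p = 2.73e-09). Myo1c rose after RBPMS knockdown (0.61, edgeR adjusted p = 1.06e-10) and RBFOX2 knockdown (0.33, adjusted p = 1.95e-07). RBFOX2 knockdown also raised Myo9a (0.61, edgeR adjusted p = 1.62e-06) and Myo10, the motor of filopodia (0.49, adjusted p = 3.35e-07), and lowered Myo9b (−0.28, adjusted p = 1.45e-04). Myo19, a mitochondrial myosin, rose slightly after QKI knockdown (0.13, SE 0.038, edgeR adjusted p = 0.00724).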
